A study of Homo sapiens with 4 samples.

Results

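The regions described here are short gaps between neighbouring protein-coding genes, places where the ends of a pair of genes lie almost against each other. They were found in the RefSeq gene table of GRCh38.p14 on chromosomes 1 to 22. Of 16471 pairs of neighbours whose spans do not overlap, 2034 lie 1000 bp or less apart, and each region is the gap plus 500 bp on each side. The 2034 regions involve 3722 of 19126 protein-coding genes. Among these, 346 genes belong to 2 pairs, and 12 regions overlap another region, so the regions are not independent of each other. The median gap was 265 bp, with quartiles of 128 and 516 bp, and 11 gaps had a length of 0.

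The data are 2 lists of broad peaks from chromatin immunoprecipitation followed by sequencing (ChIP-seq) in cells of a MDA-MB-231 subclone. MDA-MB-231 is a triple-negative breast cancer cell line. The genotype label is wild type and the cells were untreated. The antibody was directed against the HA tag (Abcam), and the labels name PD-L1, the ligand of the inhibitory T-cell receptor PD-1, as the precipitated protein. The way in which the cells came to carry the tag was not given in the sources used here. There were 2 ChIP samples, called biological replicates in the design text, and 2 input samples without antibody, which entered only through the authors' peak caller. Replicate 1 had 166628 deposited peaks and replicate 2 had 93618. Library depth is unknown, because only peak lists were used. No mock precipitation was analysed here, so in any result below binding of the protein cannot be told apart from recovery of chromatin that does not need it. Peaks of replicate 2 carry the word Merge in their names, and what was merged was not given in the sources used here. Whether the lists are independent is therefore unclear, and with it every share of regions marked in both.

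Genes that start close together on opposite strands are called head-to-head pairs. Their shared intergenic stretch often works as a bidirectional promoter, a nucleosome-poor, CpG-rich sequence from which transcription runs both ways. Such pairs are common among housekeeping genes, including those of DNA repair, mitochondrial function and translation. In tandem pairs the end of one gene lies close to the start of the next on the same strand. In tail-to-tail pairs only the far ends of both genes meet, and the gap holds no annotated start of either.

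The promoters below show what the gap between head-to-head genes contains in pairs with and without a peak. Each is the stretch from 250 bases before to 50 bases after a gene start, from RefSeq (GRCh38.p14), written 5′ to 3′ on the strand of the named gene, with CG dinucleotides in capitals. PNO1 belongs to the region with the best mean rank of fold over both replicates. HSPE1 is the start of a textbook bidirectional promoter with peaks in both replicates. PSMB9 is the start of another textbook bidirectional promoter, with no peak in either replicate. OR2H1, an odorant receptor gene, has few CG dinucleotides and no peak in either replicate.
PNO1: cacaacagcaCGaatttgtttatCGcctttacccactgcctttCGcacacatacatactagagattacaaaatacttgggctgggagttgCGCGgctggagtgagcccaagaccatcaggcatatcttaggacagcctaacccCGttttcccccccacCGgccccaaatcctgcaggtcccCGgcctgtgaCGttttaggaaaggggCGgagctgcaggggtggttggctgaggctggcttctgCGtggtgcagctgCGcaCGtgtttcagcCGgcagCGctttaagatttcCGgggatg
HSPE1: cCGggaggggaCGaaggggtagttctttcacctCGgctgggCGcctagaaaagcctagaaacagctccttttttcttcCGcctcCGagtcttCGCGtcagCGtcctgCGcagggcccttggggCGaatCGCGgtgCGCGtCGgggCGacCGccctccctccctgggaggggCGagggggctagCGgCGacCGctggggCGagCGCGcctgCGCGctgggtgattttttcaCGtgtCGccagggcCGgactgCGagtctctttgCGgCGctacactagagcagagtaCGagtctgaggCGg
PSMB9: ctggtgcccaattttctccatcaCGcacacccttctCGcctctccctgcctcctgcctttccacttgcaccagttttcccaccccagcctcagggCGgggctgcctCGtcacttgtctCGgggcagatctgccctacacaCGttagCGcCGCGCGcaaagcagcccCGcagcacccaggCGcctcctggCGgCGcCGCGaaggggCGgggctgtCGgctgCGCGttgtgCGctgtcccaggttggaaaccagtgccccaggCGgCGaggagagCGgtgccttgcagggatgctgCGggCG
OR2H1: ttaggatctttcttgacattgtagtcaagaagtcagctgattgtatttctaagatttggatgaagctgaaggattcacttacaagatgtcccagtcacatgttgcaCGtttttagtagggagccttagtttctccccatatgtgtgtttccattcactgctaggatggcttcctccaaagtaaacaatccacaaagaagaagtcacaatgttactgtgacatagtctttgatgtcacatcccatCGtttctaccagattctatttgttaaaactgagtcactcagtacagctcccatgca
The PNO1 promoter (chr2:68157638-68157937, plus strand) holds 16 CG dinucleotides and shares 140 bases with the promoter of its partner DNAAF10. That of HSPE1 (chr2:197500129-197500428, plus strand) holds 35 and shares 204 bases with the promoter of HSPD1. That of PSMB9 (chr6:32853942-32854241, plus strand) holds 26 and shares 13 bases with the promoter of TAP1. The OR2H1 promoter (chr6:29456905-29457204, plus strand) holds 2 and shares 183 bases with that of OR11A1. GC content was 56.7% at PNO1, 67% at HSPE1, 68.3% at PSMB9 and 40% at OR2H1. PSMB9 and OR2H1 both lie in a stretch of chromosome 6 with few marked regions, described below, where it cannot be seen from peak lists whether reads could be placed.

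Most short-gap regions were overlapped by a peak of replicate 1. At least 1 base of a peak lay in 1533 of the 2034 regions in replicate 1, or 75.4% (95% Wilson interval 73.4% to 77.2%). In replicate 2 it lay in 551 regions, or 27.1% (25.2% to 29.1%). Peaks of both replicates lay in 502 regions, or 24.7% (22.9% to 26.6%). Over all 38252 ends of protein-coding genes, with windows of 1000 bp, the shares were 45.1% in replicate 1, 16.3% in replicate 2 and 12.5% in both. All intervals given here cover counting error only.

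Short gaps were marked at higher shares than the ends of genes that stand alone. Isolated genes were those with no protein-coding neighbour within 20 kb, 4291 genes with 8582 ends. Windows at these ends were given the same widths as the gap regions, which ran between 1000 and 1997 bp. A gap region holds the ends of 2 genes and an isolated window that of 1, and this number was not matched. In replicate 1, 75.4% of gap regions were marked, against 35% of isolated ends. Replicate 2 marked 27.1% of gap regions and 13.5% of isolated ends. Both replicates marked 24.7% of gap regions and 9.62% of isolated ends. The differences were 40.4 percentage points in replicate 1, 13.6 in replicate 2 and 15.1 for both. No p-value was computed, since regions of 1 list are not replicates. With only the 50% of peaks of each list that had the higher fold, the difference was 29.7 points in replicate 1 and 0.866 in replicate 2. With a −log10 q of 2 or more required of each peak it was 32 points in replicate 1 and 3.84 in replicate 2. The differences in replicate 2 were thus small in points, but fewer gap regions were marked at all. Its share of marked gap regions was 7.18% with the higher fold and 7.82% with the −log10 q, instead of 27.1%. The smaller differences belong to these lower shares.

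Peaks covered more of the sequence in short gaps as well. Peaks of replicate 1 covered 49.3% of the bases of gap regions, 17.4% of those at isolated ends and 27.7% of those at all gene ends. For replicate 2 the figures were 11.1% in gap regions, 5.03% at isolated ends and 7.41% at all gene ends.

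The lists overlapped unequally within the gaps. Regions marked in both replicates were 32.7% of those marked in replicate 1 and 91.1% of those marked in replicate 2. At isolated ends, in windows of 1000 bp, the same shares were 24.5% of the ends marked in replicate 1 and 69.1% of those marked in replicate 2. These shares move with how often replicate 1 marks a region at all. Replicate 1 alone marked 1031 gap regions, replicate 2 alone marked 49, and 452 (22.2%) had no peak in either. Among isolated ends, 64% had no peak in either.

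The orientation of a pair could be set for 1469 of the 2034 regions, those in which RefSeq promoters give the strand of both genes. There were 750 head-to-head, 377 tandem and 342 tail-to-tail pairs. The other 565 were marked at 72.4% in replicate 1 and 26.4% in replicate 2, between the tail-to-tail and head-to-head pairs. Head-to-head gaps were the shortest, with a median of 169 bp, against 475 bp in tandem and 363 bp in tail-to-tail pairs.

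Gaps that hold 2 gene starts were marked most often in replicate 1. Of the 750 head-to-head regions, 643 had a peak in replicate 1, or 85.7% (83% to 88.1%), 221 in replicate 2, or 29.5% (26.3% to 32.8%), and 206 in both. Of the 377 tandem regions, 288 had a peak in replicate 1, or 76.4% (71.9% to 80.4%), 102 in replicate 2, or 27.1% (22.8% to 31.8%), and 93 in both. Of the 342 tail-to-tail regions, 193 had a peak in replicate 1, or 56.4% (51.1% to 61.6%), 79 in replicate 2, or 23.1% (18.9% to 27.9%), and 71 in both. The intervals of the 3 classes were apart in replicate 1 and overlapped one another in replicate 2. Head-to-head regions exceeded the 719 tandem and tail-to-tail regions by 18.8 points in replicate 1 and by 4.29 in replicate 2. For both replicates the difference was 4.66 points, and it was −0.0851 points when each peak needed a −log10 q of 2 or more.

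**Figure D1:**
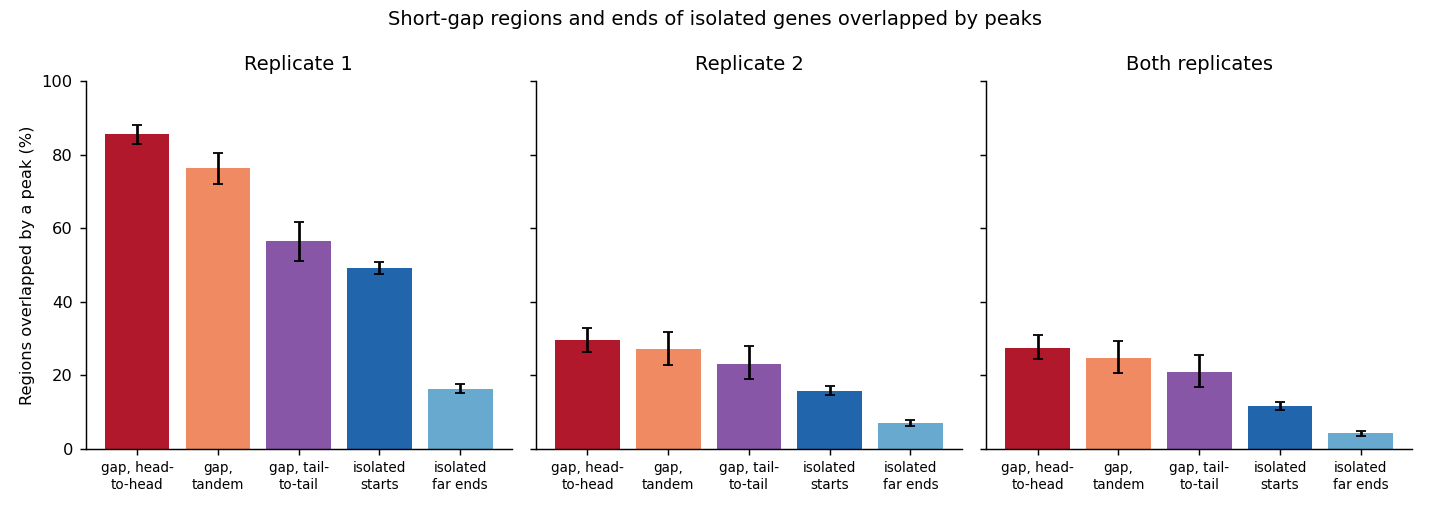
Percent of regions overlapped by a peak (y axis) in replicate 1, replicate 2 and both, for head-to-head, tandem and tail-to-tail gap regions and for starts and far ends of isolated genes in windows of 1000 bp. Bars are shares and lines are 95% Wilson intervals. In replicate 1 the share steps down between 85.7% in head-to-head gaps and 16.3% at isolated far ends, and in replicate 2 the 3 kinds of gap lie between 23.1% and 29.5%.

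Each kind of gap was marked more often than the isolated ends set beside it. Tandem gaps border 1 start and 1 far end but were set beside isolated starts only. A gap region holds 2 gene ends and an isolated window 1, and the part of this in the differences was not tested. With widths made equal, 85.7% of head-to-head regions and 50.9% of isolated starts were marked in replicate 1, and 29.5% of head-to-head regions and 17.4% of isolated starts in replicate 2. Tandem regions stood at 76.4% and isolated starts of the same widths at 52.7% in replicate 1, and at 27.1% and 19.1% in replicate 2. Tail-to-tail regions stood at 56.4% and isolated far ends at 19.4% in replicate 1, and at 23.1% and 9.01% in replicate 2. The ratio was highest for tail-to-tail regions, at 2.92 in replicate 1 and 2.56 in replicate 2, against 1.68 and 1.7 for head-to-head regions.

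Among ends that lie outside other genes, marking was graded by the distance to the neighbour. Starts of protein-coding genes were marked at 82.4% in replicate 1 when the next gene beyond the start lay within 1 kb, 67.8% at 1 to 5 kb, 62.3% at 5 to 20 kb, 57.7% at 20 to 100 kb and 50.3% beyond 100 kb. The same classes stood in replicate 2 at 26.1%, 22.8%, 19.8%, 18.2% and 16.1%. Far ends fell with distance too, with 58.2%, 38.5%, 28.3%, 21.4% and 13% in replicate 1 and 20.7%, 16.7%, 13.8%, 9.58% and 5.9% in replicate 2. The order held at every step of distance in both lists. Ends inside another gene, which have no such distance, lay below the class within 1 kb, with 61.4% of starts and 36.2% of far ends in replicate 1, and 19.7% of starts and 14.5% of far ends in replicate 2.

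Head-to-head regions were marked at similar or higher shares when the gap was longer. Those with gaps of 0 to 400 bp were marked at 84.7% in replicate 1 and 29.1% in replicate 2, and those with longer gaps at 93.4% in replicate 1 and 31.9% in replicate 2. In finer bins of replicate 2 the share was 26.4% with gaps up to 100 bp, 36.8% of 19 regions with gaps over 600 and up to 800 bp, and 23.5% of 17 regions with gaps over 800 bp, with wide intervals in the last bins. Longer gaps also make wider regions. Tandem regions with gaps up to 400 bp were marked at 76.6% in replicate 1 and 19.6% in replicate 2, and those with longer gaps at 76.3% in replicate 1 and 32.4% in replicate 2. Tail-to-tail regions with gaps up to 400 bp stood at 58.3% in replicate 1 and 23.9% in replicate 2, and those with longer gaps at 54.3% and 22.2%. At the limit of the definition, the 112 regions with gaps less than 100 bp below it were marked at 75.9% in replicate 1 and 35.7% in replicate 2. The 74 pairs just outside, with gaps of up to 1100 bp, stood at 71.6% in replicate 1 and 39.2% in replicate 2.

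Where the peaks lay within the gap differed by orientation. In head-to-head pairs, peaks of replicate 1 covered the middle of the gap in 71.6% of pairs, against a mean of 12% at positions 5 to 10 kb away, a ratio of 5.95. Replicate 2 covered the middle in 16.7% of pairs and the outer positions in 4.56% on average, a ratio of 3.65. The highest coverage stood exactly at the middle in both lists. At isolated starts the coverage was 31.9% at the start and 5.12% at 5 to 10 kb in replicate 1, and 7.83% and 2.53% in replicate 2. The step between near and far was thus of like size at isolated starts, at a ratio of 6.24 in replicate 1 and 3.09 in replicate 2, on a lower level.

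In tandem pairs the highest coverage in replicate 1, 59.7%, stood 350 bp from the middle on the side of the downstream gene, whose start borders the gap. Coverage of tandem pairs in replicate 1 was also high far from the gap, with a mean of 23.8% at 5 to 10 kb. Replicate 2 did not show this place. Its highest coverage, 12.7%, stood at −2850 bp, on the side of the upstream gene. It covered 11.4% of the middles and a mean of 8.12% at 5 to 10 kb. Tail-to-tail pairs showed a low and broad rise in replicate 1, and no maximum at the middle in either list. Replicate 1 covered 30.4% of their middles and 24% of positions 5 to 10 kb away, a ratio of 1.27, and replicate 2 covered 9.06% and 7.8%. Their highest coverage in replicate 1, 36.8%, was reached on both sides of the middle, at −1250 bp and at 600 and 650 bp. Close to the middle it was lower, with 27.5% at −150 bp. In replicate 2 the highest coverage of tail-to-tail pairs, 14%, stood away from the gap, at −4050 bp. At isolated far ends the coverage was 6.22% at the end and 6.81% at 5 to 10 kb in replicate 1.

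**Figure D2:**
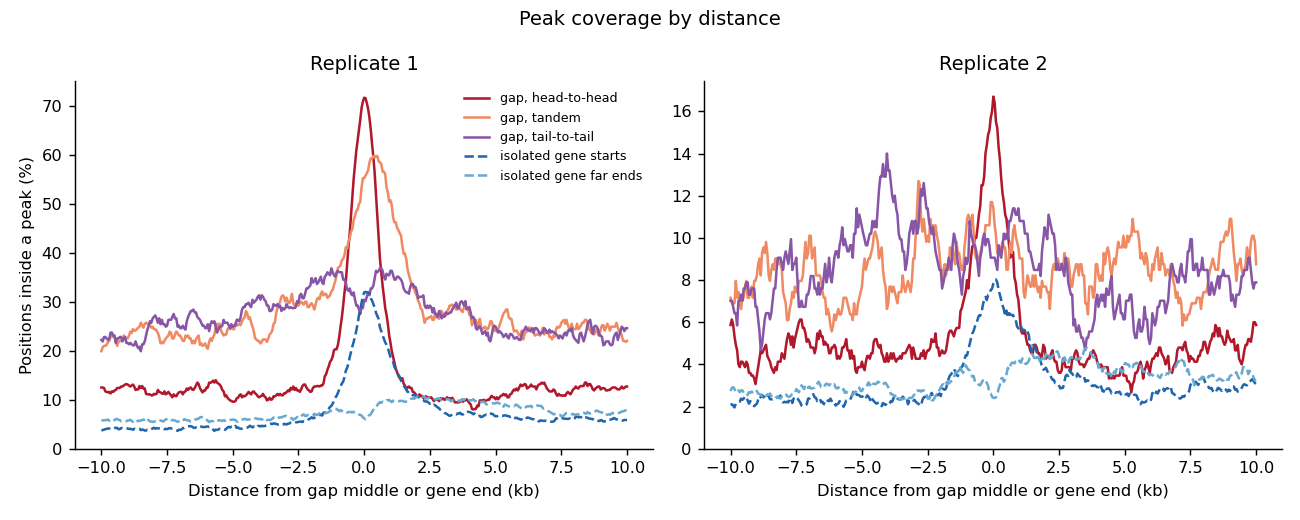
Percent of gap regions or isolated gene ends whose base at a given distance (x axis, kb) lies inside a peak (y axis), for each replicate; y axes differ in scale. Distance 0 is the gap middle or the gene end, and positive values run into the isolated gene, towards the downstream gene in tandem pairs and towards higher coordinates in the other pairs. Head-to-head gaps rise to 71.6% in replicate 1 and 16.7% in replicate 2 at the middle, while tail-to-tail gaps reach 36.8% beside the middle in replicate 1, against a mean of 24% at 5 to 10 kb.

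The surroundings of the gaps differed from those of isolated genes. The median number of protein-coding genes with their midpoint within 500 kb, the pair's own included, was 20 at gap regions and 7 at isolated ends. A split by this number was chosen after the values above were seen. Head-to-head regions were marked in replicate 1 at 85.7% with 0 to 9 such genes, 88.2% with 10 to 19, 86.8% with 20 to 39 and 73.1% with 40 or more. Isolated starts in the same bins stood at 50.3%, 50.3%, 37.5% and 43.5%. Their windows were 1000 bp wide here, against 1000 to 1994 bp in head-to-head regions. In replicate 2 head-to-head regions stood at 29.5%, 29.5%, 31.6% and 22.4%, and isolated starts at 15%, 16.6%, 20% and 17.4%. Head-to-head gaps thus lay above isolated starts in every bin of both lists, but their intervals overlapped in both lists in the bin of 40 or more genes, which held 67 head-to-head regions and 23 isolated starts.

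Tail-to-tail regions varied far more with the number of genes around them. In replicate 1 they were marked at 16.7% (9 of 54 regions) with 0 to 9 genes within 500 kb, 50.4% with 10 to 19, 73.2% with 20 to 39 and 72.7% with 40 or more. Isolated far ends in these bins stood at 12.3%, 26.2%, 22.6% and 28.6%. Their windows too were 1000 bp wide, against 1000 to 1997 bp in tail-to-tail regions. In replicate 2 tail-to-tail regions stood at 5.56%, 20.5%, 34.6% and 18.2%, and isolated far ends at 5.07%, 10.5%, 12.5% and 14.3%. In gene-poor surroundings the interval of tail-to-tail regions, 9.02% to 28.7% in replicate 1, thus included the share of isolated far ends. Tail-to-tail pairs in which both genes span over 10 kb, so that both starts lie away from the gap, were marked at 46.2% of 156 in replicate 1, and pairs with a shorter gene at 65.1% of 186. For replicate 2 these shares were 19.2% of pairs of 2 long genes and 26.3% of pairs with a shorter gene.

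**Figure D3:**
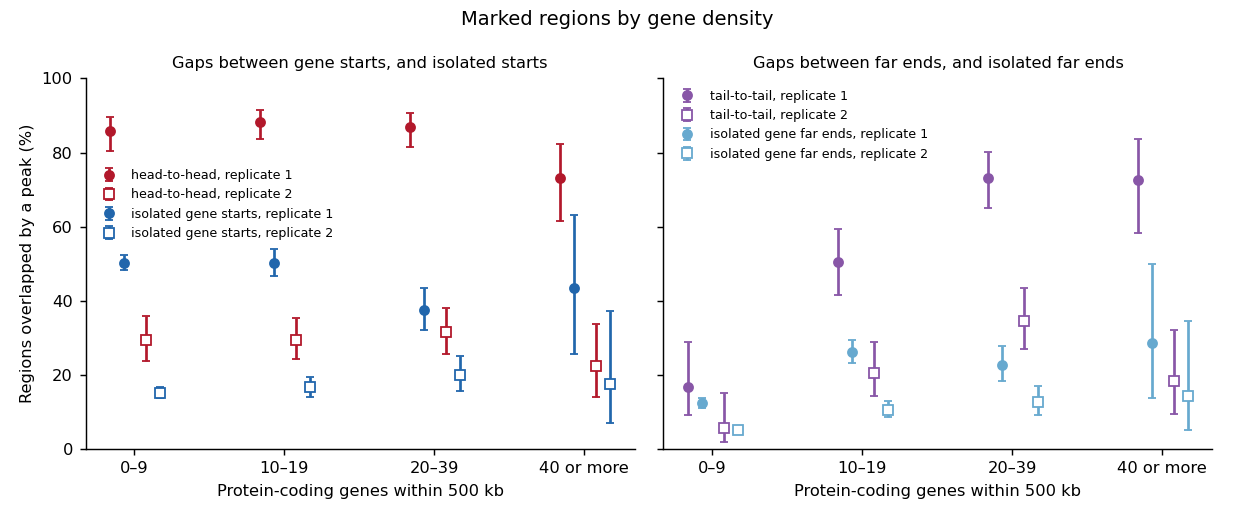
Percent of regions overlapped by a peak (y axis) by the number of protein-coding genes within 500 kb (x axis), with 95% Wilson intervals; filled circles are replicate 1 and open squares replicate 2. The left panel sets head-to-head gaps beside isolated starts, and the right panel tail-to-tail gaps beside isolated far ends. Isolated windows are 1000 bp wide. Head-to-head gaps stay between 73.1% and 88.2% in replicate 1, whereas tail-to-tail gaps run between 16.7% and 73.2%.

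With isolated windows of 1000 bp, gaps lay above isolated ends on all 22 chromosomes in both lists. These windows are narrower than most gap regions, which favours the gaps. Over all chromosomes, equal widths raised the isolated share from 32.4% to 35% in replicate 1 and from 11.5% to 13.5% in replicate 2. Small differences on single chromosomes are therefore not shown to hold at equal widths. Measured with isolated windows of 1000 bp on each chromosome, the difference in replicate 1 had a median of 42 points, with the lowest on chromosome 6 (6.44) and the highest on chromosome 19 (65.5). The median in replicate 2 was 12.9 points, with 1.2 on chromosome 6 and 27.2 on chromosome 21. Chromosome 20 had 89.1% of gap regions and 70.9% of isolated ends marked in replicate 1.

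Most unmarked gaps of chromosome 6 lay in a single stretch, which was singled out after its values were seen. Between 25 and 34 Mb this chromosome carries clustered histone genes, odorant receptor genes and the major histocompatibility complex, which presents antigens to T cells. Of 66 gap regions there, 4 were marked in replicate 1, or 6.06% (2.38% to 14.6%), and 2 in replicate 2, or 3.03% (0.835% to 10.4%). Whether reads of this stretch were lost at alignment cannot be seen from peak lists and was not tested, so a region without a peak there is not shown to lack signal. The 72 isolated ends of the stretch were marked at 13.9% in replicate 1 and 4.17% in replicate 2. On the rest of chromosome 6, 45 of 61 gap regions (73.8%) had a peak in replicate 1 and 12 (19.7%) in replicate 2. The marked regions of the stretch were H3C1/H4C1, H2BC11/H2AC11 and H2AC16/H1-5, all pairs of histone genes, and ITPR3/UQCC2, a calcium channel of the endoplasmic reticulum beside an assembly factor of mitochondrial complex III. Of its 23 head-to-head regions 1 was marked in replicate 1 and 0 in replicate 2. The unmarked TAP1/PSMB9 and OR11A1/OR2H1 promoters shown above both lie in this stretch. Outside it, 77.7% of 1968 gap regions were marked in replicate 1 and 27.9% in replicate 2.

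**Figure D4:**
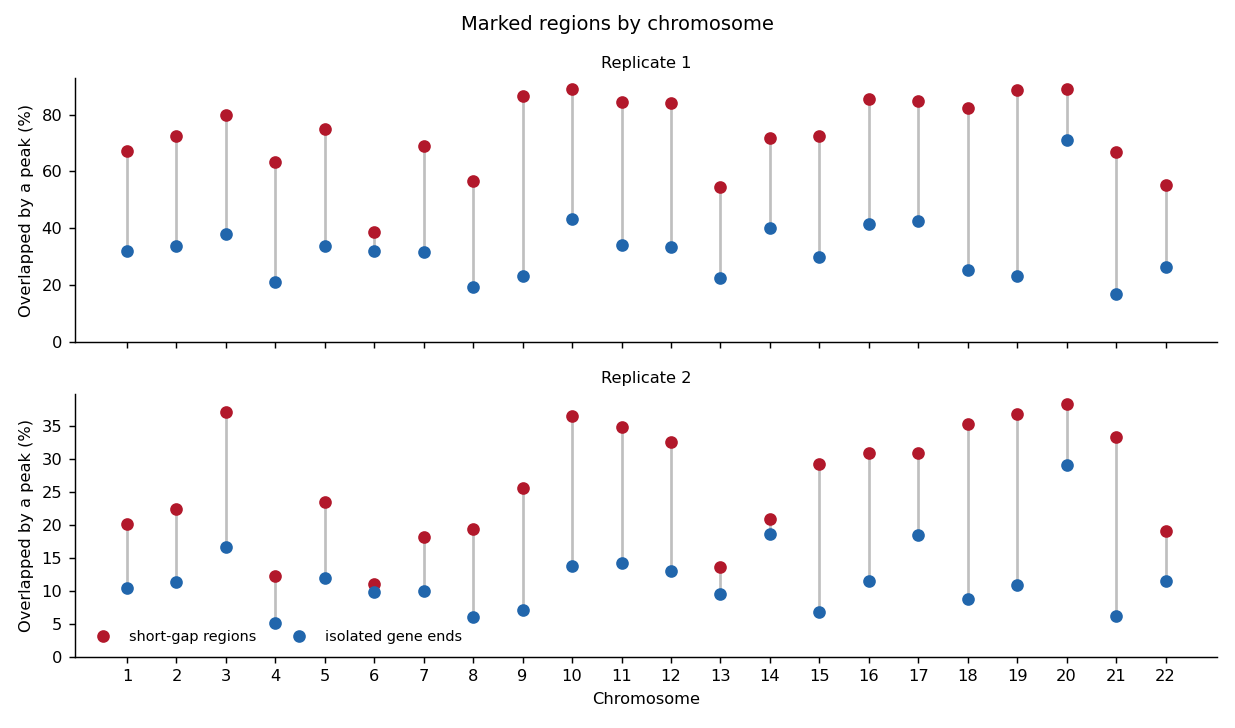
Percent of short-gap regions and of isolated gene ends overlapped by a peak (y axis) on each of chromosomes 1 to 22 (x axis), for replicate 1 above and replicate 2 below; grey lines join the points of a chromosome. Isolated windows are 1000 bp wide, narrower than most gap regions, which favours the gaps. At these widths gap regions lie above isolated ends on all 22 chromosomes in both lists. The smallest differences are 6.44 points in replicate 1 and 1.2 points in replicate 2, on chromosome 6.

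Head-to-head promoters were richer in CG dinucleotides. The 1500 promoters of the 750 pairs held a median of 26 CG in 300 bases, against 20 at 3361 promoters of isolated genes and 22 at all 15101 promoters of the table. Of the head-to-head promoters, 89.3% had their start within 100 bp of the gene end that borders the gap. A peak of replicate 1 overlapped 76.5% of head-to-head promoters and 38.5% of isolated promoters. A peak of replicate 2 overlapped 20.7% of head-to-head promoters and 10.8% of isolated promoters. Promoters of isolated genes weighted to the CG counts of head-to-head promoters stood at 49.6% in replicate 1 and 12.2% in replicate 2. The remaining differences were 26.9 points in replicate 1 and 8.47 points in replicate 2. Promoters of the downstream genes of tandem pairs were marked at 63.7% in replicate 1 and 13.5% in replicate 2, and isolated promoters weighted to their CG counts at 42.4% and 11.9%. That left 21.3 points in replicate 1 and 1.63 in replicate 2, where the whole tandem region had exceeded isolated starts by 7.98 points.

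Marking changed with the CG count, in a different way in each list. In replicate 1, head-to-head promoters were marked at 23.5% with 0 to 4 CG, 47.1% with 5 to 9, 74.1% with 10 to 19, 82.7% with 20 to 29 and 77.1% with 30 or more. Isolated promoters in the same bins stood at 10.2%, 29.7%, 42.7%, 56.8% and 48.4%. In replicate 2, head-to-head promoters stood at 23.5%, 23.5%, 26.2%, 22.6% and 15.7%, and isolated promoters at 6.18%, 13.1%, 15.8%, 15.4% and 7.57%. The share was thus lowest at the fewest CG in replicate 1 and at the most CG in replicate 2 for head-to-head promoters. The lowest bin held 34 head-to-head promoters, with 8 marked in each list. Per pair, the 2 promoters together held a median of 51 CG where both replicates marked the region, 53 where replicate 1 alone did, and 48 where neither did.

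**Figure D5:**
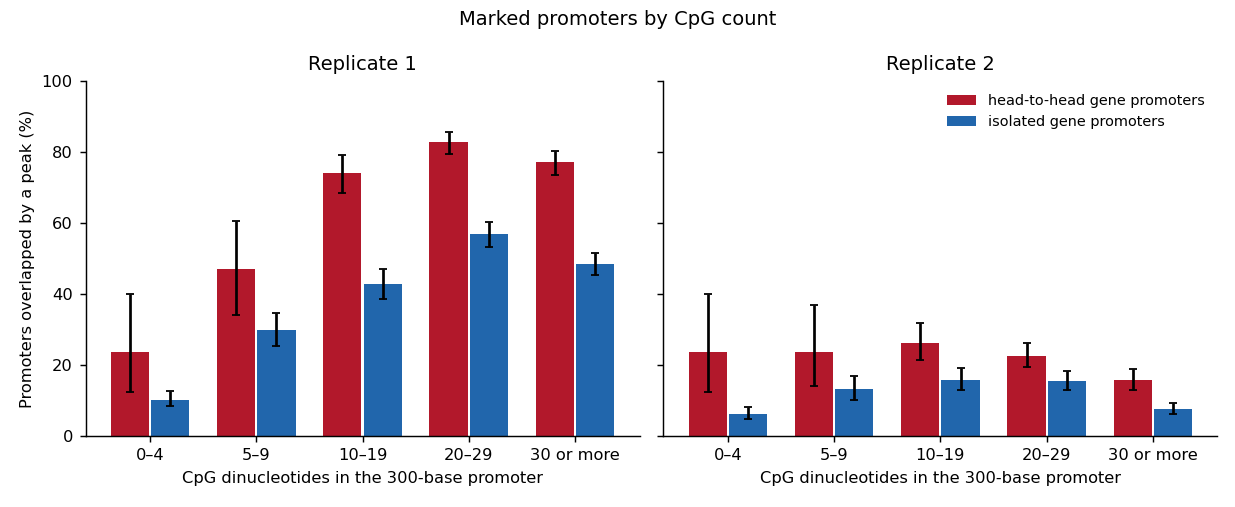
Percent of 300-base promoters overlapped by a peak (y axis) by their number of CG (CpG) dinucleotides (x axis), for head-to-head genes and isolated genes, with 95% Wilson intervals. The intervals count the 2 promoters of a head-to-head pair as separate. In 577 of 750 pairs they share bases, so these intervals are too narrow. Head-to-head promoters exceed isolated promoters in each bin of both lists, with shares up to 82.7% in replicate 1 and up to 26.2% in replicate 2.

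Marking of both promoters of a head-to-head pair was counted in each list. In replicate 1, 540 of 750 pairs had a peak on both promoters, 68 on 1 of them and 142 on neither. In replicate 2, 133 pairs had a peak on both promoters, 44 on 1 and 573 on neither. Most promoter windows of a pair share bases, as in 577 pairs, so that 1 peak can mark both. Among the 173 pairs whose windows share no base, replicate 1 marked both promoters in 94 pairs, 1 in 51 and none in 28, and replicate 2 marked both in 13, 1 in 28 and none in 132. In these pairs marking of both was more common than marking of 1 in replicate 1 and less common in replicate 2. This order moves with how often a list marks any promoter, so it does not compare joint marking between the lists. Joint marking beyond that rate was not tested.

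Motifs known from bidirectional promoters were searched on both strands in the same 300 bases. The ETS motif CCGGAAGT was in 15.3% of head-to-head promoters, 2.59% of isolated promoters and 6.31% of all promoters. Taking head-to-head, isolated and all promoters in turn, the NRF1 motif GCGCATGC was in 8.2%, 3.15% and 4.19%, and the YY1 motif AAGATGGC in 7.47%, 2.35% and 3.91%. The GC box GGGCGG was in 71.5%, 53.5% and 58.9%, the CCAAT box CCAAT in 42.5%, 36.3% and 36%, and the CRE motif TGACGTCA, which reads the same on both strands, in 3.6%, 2.62% and 2.65%. The TATA box TATAAA ran the other way, with 4.07% of head-to-head, 12.4% of isolated and 9.71% of all promoters. Promoters of a head-to-head pair that share bases can share a match. A match is a run of letters and was not tested for binding of any factor.

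Within head-to-head promoters, replicate 1 marked 83.5% of those with the ETS motif and 75.3% of those without, and 52.5% of those with the TATA box and 77.6% of those without. For ETS in replicate 2 the order was the other way, with 19.1% of promoters with the motif and 20.9% of those without. For the TATA box the shares in replicate 2 were 16.4% with it and 20.8% without. The GC box went with 79% of promoters marked in replicate 1, against 70.3% without it, and with 19.9% in replicate 2, against 22.5% without it. Promoters with the YY1 motif were marked at 83.9% in replicate 1, against 75.9% without it, and at 25% in replicate 2, against 20.3% without it. The CRE motif went with 81.5% in replicate 1, against 76.3% without it, and with 24.1% in replicate 2, against 20.5% without it. For NRF1 the shares were 85.4% with the motif and 75.7% without in replicate 1, and 17.1% with and 21% without in replicate 2. For the CCAAT box they were 78.1% with and 75.4% without in replicate 1, and 19.4% with and 21.6% without in replicate 2.

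By fold, peaks in the gaps were close to those of the whole list in replicate 1 and somewhat weaker in replicate 2. The authors' fold enrichment is the caller's ratio of precipitated signal over its background, and their −log10 q its adjusted significance. The highest-fold peak of each marked gap region had a median fold of 3.24 in replicate 1, against 3.18 at isolated ends and 3.14 over all peaks of the list. The replicate 2 median was 2.14 in gap regions, 2.26 at isolated ends and 2.27 over all peaks. Median −log10 q in gap regions was 2.13 in replicate 1, with a highest value of 5.25, and 1.77 in replicate 2, with a highest value of 3.68. Peaks in gap regions were wide in replicate 1, with a median of 1440 bp against 924 bp at isolated ends and 611 bp over the list. Replicate 2 widths had medians of 764 bp in gap regions, 781 bp at isolated ends and 636 bp over the list. The part of peak width in the shares above was not tested. The best peak of replicate 1 spanned the whole gap in 941 of 1533 marked regions (61.4%), and that of replicate 2 in 161 of 551 (29.2%). Over the 502 regions marked in both, fold in replicate 1 and in replicate 2 were almost unrelated as a description across regions, which share their libraries (Spearman rho 0.0336, Pearson r 0.011 on the log2 scale).

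The strongest regions shared by both lists were ranked by the mean of their ranks of fold, and their values are a description. A fold belongs to a whole peak, of which only a small part may lie in the region. First was DNAAF10/PNO1, head-to-head with a gap of 360 bp (region chr2:68157028-68158387). DNAAF10 helps to assemble the dynein motors of cilia, and PNO1 is a factor of small ribosomal subunit assembly. Its highest peak had a fold of 4.06 in replicate 1 and 2.58 in replicate 2. RHBDF1/MPG (head-to-head, chr16:75861-77506), an inactive rhomboid protein beside a DNA glycosylase of base excision repair, had a fold of 3.59 in replicate 1 and 2.61 in replicate 2. LEO1/MAPK6 (head-to-head, chr15:51971279-51972324), a subunit of the PAF1 elongation complex beside the atypical kinase ERK3, had 3.8 in replicate 1 and 2.39 in replicate 2. HSPD1/HSPE1 (head-to-head, chr2:197499775-197500878), the mitochondrial chaperonin and its co-chaperonin, had 3.55 in replicate 1 and 2.9 in replicate 2, with the highest −log10 q of any gap region in replicate 2, 3.68. Peaks covered 85.8% of the HSPD1/HSPE1 region in replicate 1 and 20.7% in replicate 2.

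Of the other 6 in the first 10, UROS/BCCIP, with a heme synthesis enzyme and a BRCA2-binding protein, had no orientation assigned and a fold of 3.6 in replicate 1 and 2.49 in replicate 2. ZSCAN32/ZNF174, a pair of zinc finger genes, and GLYR1/UBN1, a chromatin cofactor beside a subunit of the HIRA histone chaperone, were head-to-head. ZSCAN32/ZNF174 had a fold of 3.65 in replicate 1 and 2.4 in replicate 2, and GLYR1/UBN1 had 3.57 in replicate 1 and 2.5 in replicate 2. GRAMD1C/ZDHHC23, MYLK/CCDC14 and ZNF653/ECSIT were tandem. MYLK/CCDC14, with the gene of myosin light chain kinase, had a fold of 4.26 in replicate 1 and 2.31 in replicate 2. ZNF653/ECSIT (chr19:11505340-11506428), with ECSIT a factor of mitochondrial complex I assembly, was covered over 100% of its region in both lists, with a fold of 3.51 in replicate 1 and 2.73 in replicate 2. GRAMD1C/ZDHHC23, a sterol transfer protein beside a palmitoyltransferase, had 3.55 in replicate 1 and 2.73 in replicate 2. Peaks covered only 7.76% of the GRAMD1C/ZDHHC23 region in replicate 1 and 12% in replicate 2.

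The best tail-to-tail regions ranked lower. SH2D7/CIB2 stood in place 15 of 502 (fold 3.62 in replicate 1, 2.31 in replicate 2), ZBTB7B/DCST2, with a transcription factor of T-cell fate, in place 22 (3.54 and 2.32), and F10/F10-AS2, at the gene of coagulation factor X, in place 24 (3.48 and 2.38).

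The highest folds of each list were spread over other pairs. In replicate 1 the highest was 5.47 at FCGR2A/HSPA6, with an Fc receptor and a heat-inducible chaperone, which had no peak in replicate 2. This locus is duplicated and HSPA6 has a near-identical copy, so its value is uncertain. CELF1/PTPMT1 followed with 4.59 in replicate 1 and 2 in replicate 2, and CD151/POLR2L with 4.53 and 2.14. Peaks covered 60.2% of the CD151/POLR2L region in replicate 1 and 0.476% in replicate 2. In replicate 2 the highest were CFAP276/ELAPOR1, with 3.04 in replicate 2 and 3.21 in replicate 1, and HNRNPDL/ENOPH1, with 3.01 and 3.41. Peaks covered 5.68% of the HNRNPDL/ENOPH1 region in replicate 2 and 100% in replicate 1. PDGFRL/MTUS1 came next with 2.91 in replicate 2 and no peak in replicate 1.

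Of 22 gene pairs listed as known for a shared promoter, 11 met the definition here. Replicate 1 marked 9 of the 11, or 81.8% (52.3% to 94.9%), and replicate 2 marked 4, all of them also marked in replicate 1. Strand puts 1 of the 11, BRCA2/N4BP2L1, in the tail-to-tail class, so that its gap holds no annotated start; without it replicate 1 marked 9 of 10 and replicate 2 marked 4. Those marked in both included HSPD1/HSPE1, HARS1/HARS2 and SARS2/MRPS12. HARS1/HARS2, the cytosolic and mitochondrial histidyl-tRNA synthetases, had a fold of 3.11 in replicate 1 and 2.21 in replicate 2. SARS2/MRPS12, both of mitochondrial translation, had 3.27 and 2.02. Replicate 1 alone marked COL4A1/COL4A2 (3.09), NPAT/ATM (3.28), SKA2/PRR11 (3.47), SURF1/SURF2 (3.32) and TK1/AFMID (3.71). Neither list marked TAP1/PSMB9, whose genes serve antigen processing, or BRCA2/N4BP2L1.

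The families of housekeeping genes and zinc fingers were marked at 76.5% to 84.4% in replicate 1 and 21.7% to 37.8% in replicate 2, close to all gap regions at 75.4% and 27.1%. Of 34 regions with a mitochondrial ribosomal protein gene, 26 were marked in replicate 1 and 9 in replicate 2, the strongest in both being MRPS27/PTCD2 (fold 3.63 and 2.24). Of 30 with a cytosolic ribosomal protein gene, 25 were marked in replicate 1 and 9 in replicate 2. Of 23 with a gene of respiratory complex I, 19 were marked in replicate 1 and 5 in replicate 2. Of 20 with a proteasome subunit or assembly chaperone, 16 were marked in replicate 1 and 7 in replicate 2, with PSMG1/BRWD1 the strongest (3.32 and 2.73). Peaks covered 44.5% of the PSMG1/BRWD1 region in replicate 1 and only 1.2% in replicate 2. Of 44 with a DNA repair gene, 35 were marked in replicate 1 and 14 in replicate 2, and EFCAB11/TDP1 was the strongest (3.28 and 2.16). Zinc finger genes named ZNF had 38 of 45 regions marked in replicate 1 and 17 in replicate 2.

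Clustered histone and odorant receptor genes stood lower. Clustered histone genes had 4 of 20 regions marked in replicate 1 and 1 in replicate 2, which was H2AC16/H1-5 (3.11 and 2.53). Of these 20, 14 lay in the stretch of chromosome 6, with 3 marked in replicate 1, and 6 lay elsewhere, with 1 marked. Odorant receptor genes had 1 of 7 regions marked in replicate 1 and 0 in replicate 2, and 2 regions of clustered protocadherins had no peak. These families hold near-identical copies, and the part of read placement in their low counts was not tested. Both HOX regions were marked in replicate 1 and 1 in replicate 2, at HOXA10-HOXA9/HOXA11, where the first gene is a read-through transcript. Pairs whose symbols share their first 3 letters, 87 in all, were marked at 54% in replicate 1 and 25.3% in replicate 2, against 76.3% and 27.2% of the other 1947 pairs.

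Isolated genes are alone only among protein-coding genes, and a comparison with long non-coding genes was added after the values above were seen. Of 3361 isolated starts, 378 had a long non-coding gene 0 to 1000 bp upstream. These were marked at 68% (63.1% to 72.5%) in replicate 1 and 20.4% (16.6% to 24.7%) in replicate 2. The 468 starts that lie inside a long non-coding gene stood at 49.1% in replicate 1 and 16.7% in replicate 2. The other 2515 isolated starts stood at 46.4% in replicate 1 and 15% in replicate 2. Starts with a long non-coding gene just upstream thus lay between head-to-head gaps and starts with no such neighbour in both lists. Isolated windows were 1000 bp wide here and head-to-head regions 1000 to 1994 bp, so this order was not taken at equal widths.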

How the data were processed

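ChIP-seq of 2 samples and their 2 inputs gave the 2 deposited lists of broad peaks, 1 per replicate. Bowtie2 2.2.9, MACS2 2.1.1 and the build hg38 are named in the submitters' processing notes without a role. Caller settings and thresholds were not given in the sources used here. For each peak, the fold enrichment (a ratio) and the −log10 q are the authors' deposited values and were used only to rank, filter or describe the peaks of each list. The lowest −log10 q was about 1.3. Depth is unknown, since reads were not used here.

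Gene spans came from the RefSeq table of GRCh38.p14 (the build of hg38). Strand came from RefSeq promoters, given for 15101 of 19126 genes. A region was marked when a peak overlapped it by at least 1 bp. In the main comparisons isolated ends got windows with the widths of the gap regions, each width weighted by its number of gap regions. Isolated windows were 1000 bp wide in the splits by chromosome, gene density and long non-coding genes. The same width was used for overlap of the lists, covered bases and peak values. Isolated promoters were weighted to the CG counts of the promoters they were compared with. Shares have 95% Wilson intervals. The computation used Python 3.11.15, pandas 2.3.3, numpy 2.4.6, scipy 1.17.1 and matplotlib 3.10.9. Only the functions that find overlaps and pairs were checked, with planted peaks and direct counts.

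The rule for named pairs took the 10 regions marked in both lists with the lowest mean rank of fold, the 3 best of each orientation, the 3 with the highest fold in each list, known pairs with a shared promoter, and the best of each family. Members, lists and rules were chosen with earlier results of these data known. Alternatives changed the peak threshold, peak numbers, overlap, flank, longest gap, distance of isolation, definition of neighbours, chromosomes, family pairs, window width and replicates. Pairs on chromosomes X and Y were left out, and the values of 1 known pair are not reported here.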

Additional observations from a re-analysis of the deposited data

How the results depend on the processing

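The difference between gap regions and isolated ends stayed above 0 in all alternatives run. It lay between 29.7 and 44 points in replicate 1 (16 alternatives) and between 0.866 and 16.4 in replicate 2 (16). For both it lay between 2.1 and 40.4 points (18), where the 40.4 came from replicate 1 alone with replicate 2 left out. For regions marked in both replicates, the difference of 15.1 points became 3.52 with a −log10 q of 2 or more, 2.1 with the 50% of peaks of higher fold, 5.59 with 50% of the region covered, 7.5 at the middle base, 9.76 without a flank and 18.1 with a flank of 1000 bp. In the same order the share of gap regions marked in both, 24.7%, became 5.01%, 4.33%, 7.28%, 10.1%, 14% and 32.2%. That share was 20.2% with 93106 peaks from each list, 26.6% with gaps of up to 2000 bp and 22.5% without chromosomes 16, 19 and 20. Head-to-head regions marked in both exceeded the others by 4.66 points, which reversed to −0.0851 with a −log10 q of 2 or more; the cause was not tested. With 1 replicate left out, the remaining list gave 13.6 to 40.4 points for the difference, 27.1% to 75.4% for the share and 4.29 to 18.8 points for head-to-head regions over the others. No paired analysis was possible because no result comes from a test between groups of samples. The main limits are the 2 lists, the unknown depth, the missing mock precipitation, and strand for only 1469 of 2034 pairs.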
